A study of Mus musculus with 6 samples.

Results

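The genes described here are 37 mouse genes that act in DNA repair and in the DNA damage checkpoint. They were taken by name, and all 37 were found among the 23282 gene numbers counted in every library. They comprise 11 genes of homologous recombination, 10 Fanconi anaemia genes, 8 genes of break sensing and checkpoint signalling, 5 genes of end joining and 3 other repair genes. RNA of blood-forming cells of a mixed 129/Sv x C57BL/6 background was sequenced as 9 libraries from 6 samples, to ask what Mll4 does for the transcriptome of primary and transformed cells. Mll4 is the protein product of Kmt2d and methylates lysine 4 of histone H3, mostly at enhancers. MLL-AF9 is a fusion protein found in leukaemia, which keeps transduced marrow cells dividing in culture.

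In the first MLL-AF9 pair, Mll4f/f bone marrow was transformed with an MLL-AF9 retrovirus and then infected with a Cre virus (Mll4 deleted, 2 libraries) or its empty vector (Mll4 intact, 2 libraries). Both viruses carried Tomato Red, the cells were sorted 5 days after infection and grown for 14 days, and Cre goes with the deletion, so effects of Cre and of Mll4 loss cannot be told apart. The second MLL-AF9 experiment was a separate transformation of MLL4-/- marrow with MLL-AF9-neo. These cells also received a FOXO3-IRES-GFP retrovirus (2 libraries) or an empty vector (1 library), were selected in G418 and sorted for GFP. FOXO3 is a transcription factor known for stress resistance, and all 3 of these libraries lack Mll4 by label. LSK cells, the Lin-negative, Sca1-positive, c-Kit-positive fraction of marrow that holds stem cells, came from polyIC-treated littermates at 2 months of age. They were MLL4f/f MxCre+ (Mll4 deleted, 1 library) or WT MxCre+ (wild type, 1 library), and about 50 picked cells a library were amplified by PCR. MxCre acts in polyIC-responsive cells and not in LSK cells alone.

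Library totals ranged from 25895041 to 61950773 counts. Levels are given as CPM, counts per 1000000 of the library total, and intervals cover counting error only, since PCR copies are not independent molecules. Kmt2d stood at 95.6 and 73.7 CPM in the Mll4-deleted MLL-AF9 libraries, against 79.5 and 61.7 CPM in the intact ones, and at 13.9 CPM in the Mll4-deleted LSK library against 1.88 CPM in wild type. Counts over the whole gene do not check a deletion of part of it, and the LSK difference went against the labels, so "the library labelled Mll4 deleted" is meant wherever a direction is given for LSK cells. Foxo3 was counted at 1292.3 and 1308.5 CPM in the FOXO3 libraries, against 27.3 CPM with the empty vector. The 2 FOXO3 libraries differed by a chi-square of 1.97 per degree of freedom, against 191 for the Mll4-deleted pair and 146 for the intact pair, so their spread may be technical. The labels name no separate cultures, so a p-value here reflects the variation among these libraries and no more. Xist and the Y-linked Ddx3y placed 1 library of each sex in the Mll4-deleted pair and in the intact pair. The progenitor genes Kit and Ly6a were counted in all 9 libraries, with Kit between 25.3 and 186 CPM and Ly6a between 12.4 and 258 CPM. Other genes of the 10-gene progenitor list did not follow them. Flt3 stood between 0.027 and 0.757 CPM in the MLL-AF9 libraries and at 212 and 221 CPM in the LSK libraries. Spink2 was at 0 in both LSK libraries. The macrophage genes Csf1r, C1qa, C1qb and C1qc were at 0 in both LSK libraries. Of 14 listed macrophage genes, 10 were at 0 in the library labelled Mll4 deleted and 11 in wild type. Cd74 stood at 104 CPM in the library labelled Mll4 deleted and 10.1 CPM in wild type, and Lyz2 at 41.8 and 13.7 CPM.

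DNA breaks and stalled replication forks are sensed by the kinases Atm and Atr, which act through Chek2 and Chek1 to hold the cell cycle. Breaks in replicated DNA can be copied from the sister chromatid by homologous recombination, in which Brca1, Palb2 and Brca2 act in turn on the resected ends. The Fanconi anaemia pathway unhooks crosslinks between DNA strands, and its inherited loss causes bone marrow failure. End joining, with Xrcc5, Xrcc6, Prkdc, Xrcc4 and Lig4, rejoins ends without a template. Many genes of recombination and crosslink repair are transcribed together with replication genes by E2F factors as cells enter S phase.

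Promoter letters are shown for the members whose window holds an E2F spelling, because these are the windows where the members share a sequence feature that the list of names did not use. RefSeq promoter windows on GRCm38.p6, 250 bases before to 50 after a gene's start, were given for 31 of the 37 members; Xrcc2, Exo1, Fancd2, Rad50, Nbn and Prkdc had none. The E2F spellings TTTCCCGC, TTTCGCGC, TTTGCCGC and TTTGGCGC were searched on both strands. They were found for 7 of 31 members, which is 22.6%, against 704 of all 27025 genes with a window, which is 2.6%, and 3.29% of the protein-coding genes. Each 30-base window below is written on the gene's strand, 5′ to 3′, with the E2F spelling or its reverse complement in capitals.
Bard1, chr1:71103163-71103192, minus strand: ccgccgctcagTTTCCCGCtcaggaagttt
Brca2, chr5:150522442-150522471, plus strand: tttaggccacaGCGGGAAAcagacacacac
Rad51c, chr11:87404941-87404970, minus strand: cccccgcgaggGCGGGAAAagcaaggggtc
Fancg, chr4:43010335-43010364, minus strand: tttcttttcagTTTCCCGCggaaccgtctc
Chek2, chr5:110839820-110839849, plus strand: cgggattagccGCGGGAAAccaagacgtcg
Xrcc6, chr15:82016312-82016341, plus strand: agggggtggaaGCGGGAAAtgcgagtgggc
Msh6, chr17:87975054-87975083, plus strand: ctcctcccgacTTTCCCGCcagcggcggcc

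The spelling was TTTCCCGC in all 7 windows, as written in Bard1, Fancg and Msh6 and reversed in Brca2, Rad51c, Chek2 and Xrcc6. Rad51c held a further match, TTTCGCGC, at a start site of its own. The first base of the match lay 209 bases before the start in Bard1, 168 in Brca2, 152 in Chek2, 52 in Fancg, 46 in Xrcc6 and 5 in Rad51c, and at base 16 of the transcript in Msh6. The 250 bases before the start are shown for Bard1 and Fancg, which both rose with Mll4 loss, with the match in capitals.
Bard1, chr1:71102973-71103222, minus strand: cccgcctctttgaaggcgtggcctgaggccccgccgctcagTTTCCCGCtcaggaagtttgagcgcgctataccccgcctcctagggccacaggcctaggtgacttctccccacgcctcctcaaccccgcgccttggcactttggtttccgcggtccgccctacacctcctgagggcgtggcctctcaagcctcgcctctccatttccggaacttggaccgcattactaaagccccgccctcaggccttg
Fancg, chr4:43010302-43010551, minus strand: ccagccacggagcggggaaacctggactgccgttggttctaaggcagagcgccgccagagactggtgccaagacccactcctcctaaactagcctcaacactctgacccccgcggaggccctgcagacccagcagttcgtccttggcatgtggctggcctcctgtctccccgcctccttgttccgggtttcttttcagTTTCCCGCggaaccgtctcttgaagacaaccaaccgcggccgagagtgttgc

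The E2F spellings were held by 5 of the 15 members with a window that rose with Mll4 loss and by 2 of the other 16. The cell cycle motif CHR, TTTGAA, was found for 2 of 31 members, which is 6.45%, against 20.2% of all genes. CCAAT, the box bound by NF-Y, was found for 18 members, which is 58.1%, against 41.1% of all genes. The FOXO spelling GTAAACA was found for 1 member, Brca2, which is 3.23%, against 4.05% of all genes. No spelling contains another, and a match is a stretch of letters and not a measured binding site.

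Most of the 37 genes were higher in MLL-AF9 cells after Mll4 deletion. Of the 37, 18 rose, 1 fell and 18 did not pass edgeR's quasi-likelihood test at an adjusted p under 0.05; over all 14997 genes tested, 7.97% rose and 6.94% fell. Their median log2 fold change was 0.61, against −0.03 for all genes tested, and 32 of the 37 values were positive, against 47.7% of all genes. The rise was most frequent in homologous recombination, where 9 of 11 genes rose, and in the 3 other repair genes, which all rose. Of the Fanconi anaemia genes 4 of 10 rose, of the checkpoint genes 1 of 8, and of the end joining genes 1 rose and 1 fell among 5. DESeq2 called 21 higher and 2 lower, against 13.3% and 12.3% of all genes; it added Chek1, Fanca and Fancf as higher and Nbn as lower and kept all 19 calls of edgeR.

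The calls rested in part on the close FOXO3 pair, which enters the estimate of the spread. With that pair summed into 1 library, 4 members rose and none fell, against 1.23% and 0.854% of all genes: Bard1, Exo1, Msh6 and Rad54l. These calls too sat at the threshold, with an adjusted p by edgeR of 0.0493 for Bard1 and 0.0484 for Exo1, Msh6 and Rad54l. Brca1 missed it at 0.0506. With the 4 compared libraries alone, edgeR called no gene of the genome in either direction; 20 members were higher and 1 lower at an unadjusted p under 0.05, and the median of the members was 0.65. The CPM of both Mll4-deleted libraries lay above both intact libraries for 31 members and below for Nbn, Lig4 and Xrcc5, against 43.4% and 15.6% of all genes tested, and the groups overlapped for Atm, Atr and Xrcc4. CPM is scaled by library totals, whereas fold changes use TMM factors. Scaling by totals alone moved the median of all genes to 0.24 and that of the members to 0.88. The members lay 0.64 above all genes under either scaling. A change of scaling moves all genes by nearly the same amount, so this is no separate check of the difference.

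**Figure D1:**
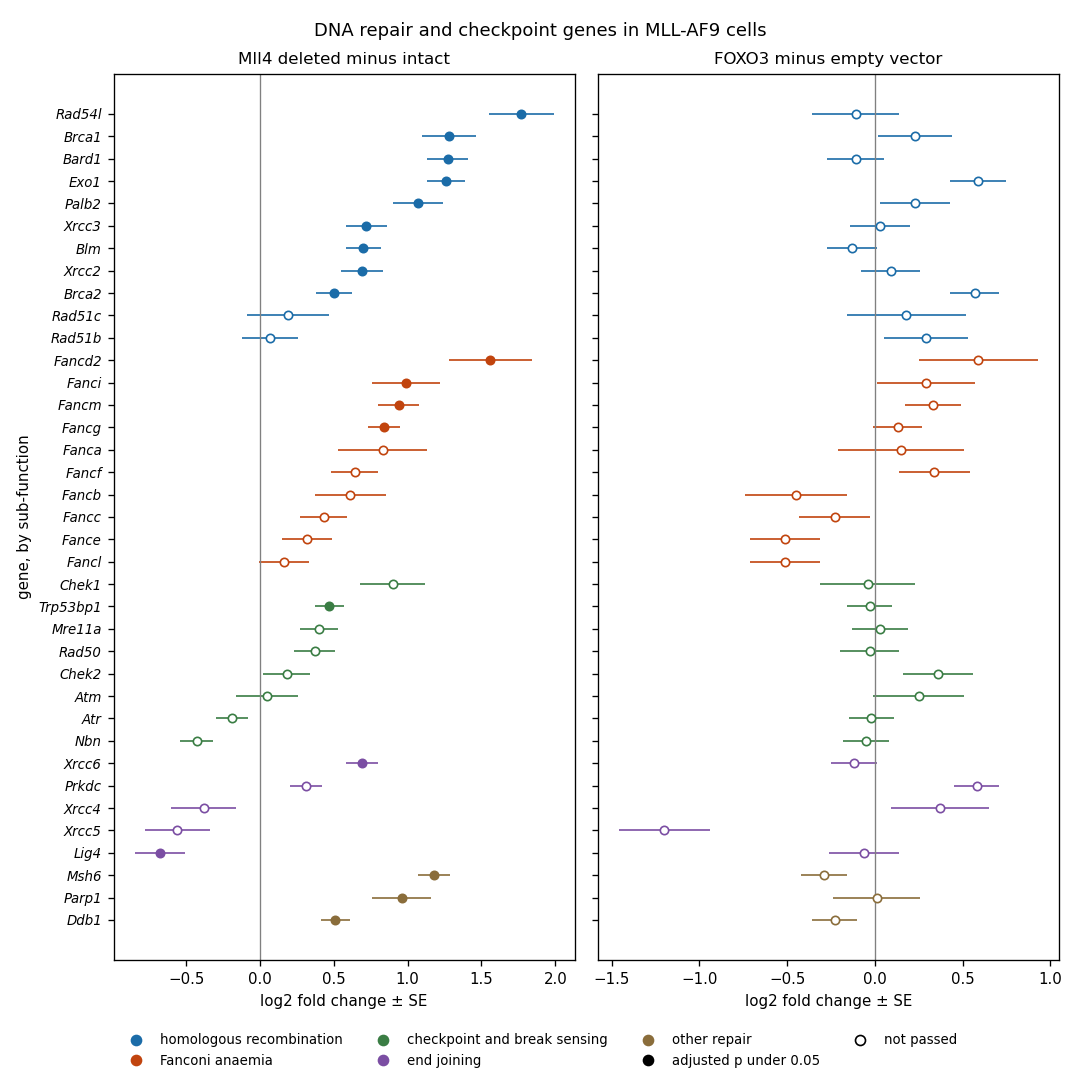
Log2 fold changes ± SE of the 37 genes by edgeR, ordered within each sub-function by the effect of Mll4 loss. Left, Mll4 deleted minus intact (2 libraries each); right, FOXO3 minus empty vector (2 libraries and 1). Filled points passed an adjusted p of 0.05. The left panel holds 19 filled points, of which Lig4 is the 1 below 0, and the right panel holds none.

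In homologous recombination, Rad54l (NCBI gene 19366), a motor protein that helps the broken strand pair with intact DNA, showed the highest fold change of the 37. It was counted at 33.4 and 48.7 CPM in the Mll4-deleted libraries, against 9.33 and 10.4 CPM in the intact libraries. Both deleted libraries were well above both intact ones, and Rad54l rose by 1.77 ± 0.22 (SE) on the log2 scale (adjusted p 0.0116 by edgeR). Brca1 (NCBI gene 12189), the ubiquitin ligase that directs breaks to recombination, stood at 43.0 and 55.5 CPM in deleted libraries, against 15.6 and 17.5 CPM in intact ones. Its partner Bard1 (NCBI gene 12021) stood at 13.7 and 11.9 CPM in deleted libraries, against 4.64 and 4.12 CPM in intact ones. The partners of this heterodimer moved by nearly the same amount, with log2 fold changes of 1.28 ± 0.18 for Brca1 (adjusted p 0.0141) and 1.27 ± 0.14 for Bard1 (adjusted p 0.0102).

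Exo1, the nuclease that resects break ends, was counted at 24.2 and 28.5 CPM in deleted libraries, against 10.2 and 7.98 CPM in intact ones, a log2 fold change of 1.26 ± 0.13 (adjusted p 0.00986 by edgeR). The deleted and intact libraries did not overlap. Palb2, the link between Brca1 and Brca2, rose by 1.07 ± 0.17 on the log2 scale, Xrcc3 and Xrcc2, both of which assist strand exchange, by 0.72 ± 0.14 and 0.69 ± 0.14, and the helicase Blm by 0.70 ± 0.12. Brca2 (NCBI gene 12190), which acts at resected ends, had the smallest rise of the 9, with 20.6 and 23.0 CPM in deleted libraries against 12.9 and 12.3 CPM in intact ones and a log2 fold change of 0.50 ± 0.12 (adjusted p 0.0426). Rad51b and Rad51c, which work in complexes with Xrcc2 and Xrcc3, did not pass. Rad51b was counted at 5.04 and 5.74 CPM in deleted libraries, against 4.55 and 3.94 CPM in intact ones (log2 fold change 0.07 ± 0.19, adjusted p 0.841). For Rad51c the log2 fold change was 0.19 ± 0.28 (adjusted p 0.67), and its groups were close together at 4.99 and 6.43 CPM in deleted libraries and 3.39 and 4.75 CPM in intact ones.

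**Figure D2:**
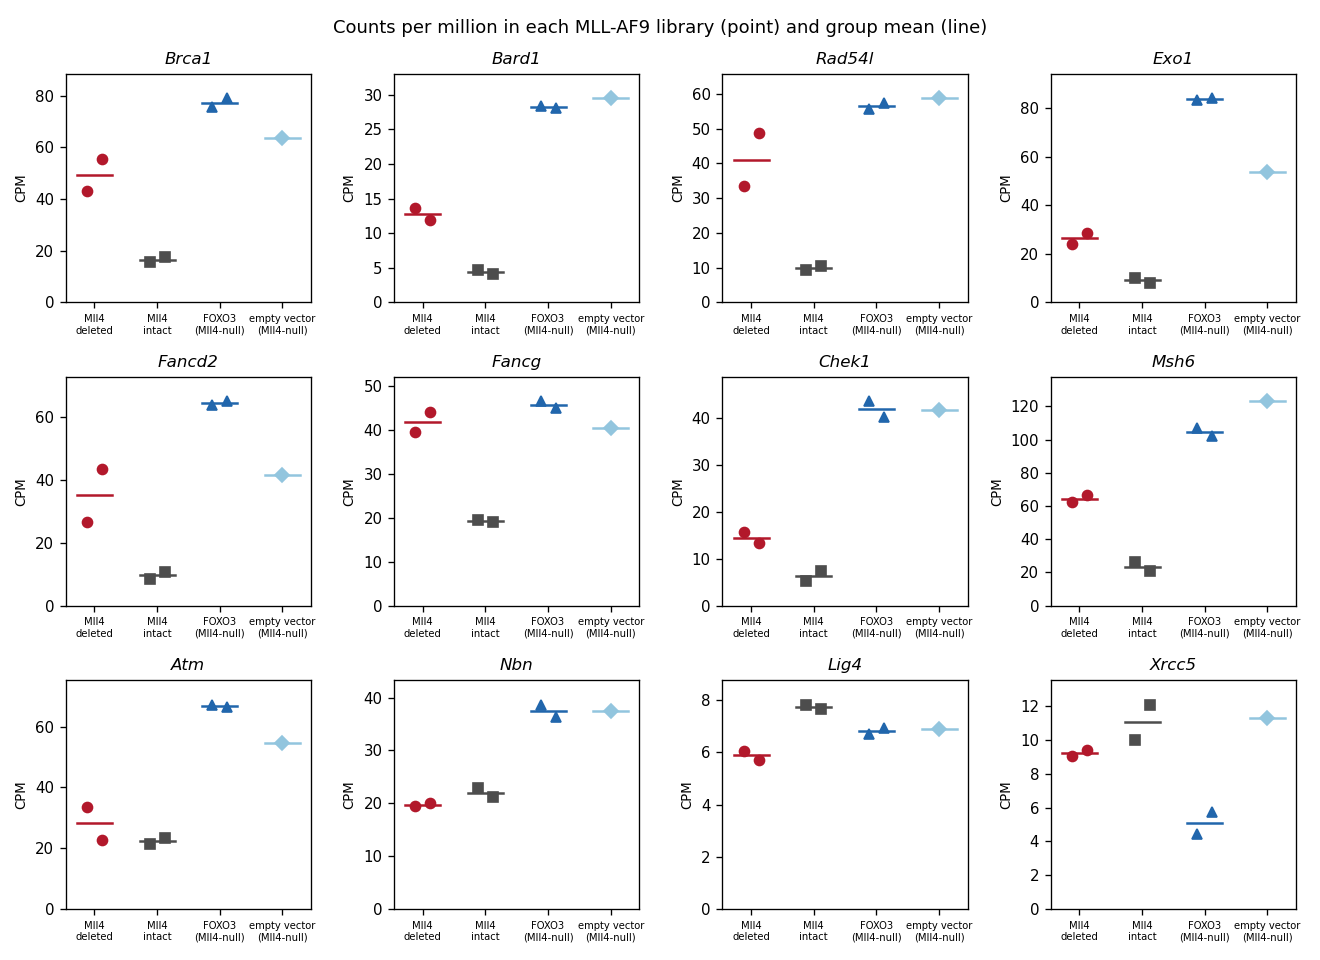
CPM of 12 of the genes in each of the 7 MLL-AF9 libraries (points), with group means (lines) and axes from 0. In Brca1, Bard1, Rad54l, Exo1, Fancd2, Fancg, Chek1 and Msh6 both Mll4-deleted libraries lie above both intact ones, in Nbn, Lig4 and Xrcc5 below, and in Atm they overlap; Xrcc5 is lower with FOXO3 than with the empty vector.

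Among the Fanconi anaemia genes, all 10 log2 fold changes were positive and 4 passed, with a median of 0.74. Fancd2 (NCBI gene 211651) and Fanci encode the clamp that is ubiquitylated at a crosslink. Fancd2 stood at 26.8 and 43.4 CPM in deleted libraries, against 8.54 and 10.8 CPM in intact ones, a log2 fold change of 1.56 ± 0.28 (adjusted p 0.0237 by edgeR). Fanci stood at 14.0 and 19.7 CPM in deleted libraries, against 6.24 and 7.60 CPM in intact ones, a log2 fold change of 0.99 ± 0.23 (adjusted p 0.0441). In both genes the second deleted library was the higher of the pair, and neither pair overlapped its intact counterpart.

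Fancm, the helicase that anchors the pathway at a stalled fork, was counted at 16.6 and 19.9 CPM in deleted libraries, against 8.42 and 7.23 CPM in intact ones (log2 fold change 0.94 ± 0.14, adjusted p 0.0158). Fancg (NCBI gene 60534), a subunit of the core ubiquitin ligase, was counted at 39.5 and 44 CPM in deleted libraries, against 19.4 and 19.0 CPM in intact ones (log2 fold change 0.84 ± 0.11, adjusted p 0.0136). The other core complex members did not pass: the log2 fold changes were 0.83 ± 0.30 for Fanca, 0.64 ± 0.16 for Fancf, 0.61 ± 0.24 for the X-linked Fancb, 0.43 ± 0.16 for Fancc, 0.32 ± 0.17 for Fance and 0.16 ± 0.17 for the ligase subunit Fancl. For Fanca the deleted libraries stood far apart, at 19.6 and 37.4 CPM, against 13.0 and 13.3 CPM in the intact libraries.

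The checkpoint and break-sensing genes moved less, with a median log2 fold change of 0.28. The single gene that passed was Trp53bp1, which marks breaks and holds back resection, with 63.1 and 57.0 CPM in deleted libraries, against 36.8 and 34.4 CPM in intact ones (log2 fold change 0.47 ± 0.10, adjusted p 0.0373 by edgeR). Of the exon bases of Trp53bp1, 22.1% overlap Tubgcp4 on the opposite strand, and its value is uncertain because the sources used here do not say whether counting used strand. Chek1, the effector kinase of Atr, was counted at 15.6 and 13.3 CPM in deleted libraries, against 5.34 and 7.31 CPM in intact ones, a log2 fold change of 0.90 ± 0.22 that just missed the threshold (adjusted p 0.0511). Its groups did not overlap.

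Both apical kinases gave small values. Atm stood at 33.7 and 22.6 CPM in deleted libraries, against 21.4 and 23.4 CPM in intact ones, and 1 deleted library lay within the intact pair (log2 fold change 0.05 ± 0.21, adjusted p 0.897). Atr stood at 24.7 and 22.6 CPM in deleted libraries, against 24.3 and 20.4 CPM in intact ones (log2 fold change −0.19 ± 0.11, adjusted p 0.253). The effector kinase Chek2 had a log2 fold change of 0.18 ± 0.16. The 3 subunits of the Mre11 complex, which tethers break ends, did not share a sign. Mre11a (log2 fold change 0.40 ± 0.13, adjusted p 0.0999) and Rad50 (0.37 ± 0.14, adjusted p 0.128) were higher in both deleted libraries, whereas Nbn, with 19.4 and 20.1 CPM in deleted libraries against 22.9 and 21.1 CPM in intact ones, was lower in both (−0.43 ± 0.11, adjusted p 0.0501).

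End joining was the sub-function with a negative median, −0.38. Lig4 (NCBI gene 319583), the ligase that seals the ends, was counted at 6.07 and 5.71 CPM in deleted libraries, against 7.84 and 7.68 CPM in intact ones. Both deleted libraries were below both intact ones, and Lig4 fell with a log2 fold change of −0.68 ± 0.17 (adjusted p 0.0494 by edgeR). That call sat at the threshold and was lost under 14 of 17 alternatives. Xrcc4, the partner of Lig4, stood at 10.8 and 16.0 CPM in deleted libraries, against 14.0 and 14.5 CPM in intact ones, so its groups overlapped (−0.38 ± 0.22, adjusted p 0.293).

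The subunits of the Ku ring that first binds a broken end differed in sign. Xrcc6 (Ku70) stood at 50.3 and 56.3 CPM in deleted libraries, against 29.0 and 25.5 CPM in intact ones, and rose by 0.69 ± 0.11 on the log2 scale (adjusted p 0.0173). Xrcc5 (Ku80) stood at 9.04 and 9.40 CPM in deleted libraries, against 10.0 and 12.1 CPM in intact ones (log2 fold change −0.56 ± 0.22, adjusted p 0.145). Per kilobase of exon, the mean over the 7 MLL-AF9 libraries was 16.2 CPM for Xrcc6 and 3.48 CPM for Xrcc5, although the proteins act as a pair. Prkdc, the kinase that Ku recruits, was counted at 25.7 and 24.0 CPM in deleted libraries, against 17.1 and 15.9 CPM in intact ones (0.31 ± 0.11, adjusted p 0.1).

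The other repair genes all rose. Msh6 (NCBI gene 17688), a subunit of the mismatch sensor, had the smallest p of the 37, with 62.4 and 66.4 CPM in deleted libraries, against 26.2 and 20.9 CPM in intact ones (log2 fold change 1.18 ± 0.11, adjusted p 0.00791 by edgeR). Parp1, which senses single-strand breaks, stood at 127 and 161 CPM in deleted libraries, against 53.3 and 67.6 CPM in intact ones (0.96 ± 0.20, adjusted p 0.0354). Ddb1, an adaptor of the ubiquitin ligase that recognises ultraviolet damage, stood at 476 and 484 CPM in deleted libraries, against 283 and 270 CPM in intact ones (0.51 ± 0.10, adjusted p 0.0319). Per kilobase, Ddb1 was also the most abundant of the 37, at a mean of 98.3 CPM over the 7 libraries, followed by Parp1 at 36.4, Chek2 at 19.2 and Msh6 at 17.1 CPM, with Lig4 last at 1.31 CPM. On this scale Parp1 was above Chek2 and Msh6 in each of the 7 libraries, while the order of Chek2 and Msh6 differed between libraries.

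Wider lists of repair genes were also chosen with these data known. Of 115 tested repair genes outside the 37, 38 rose and 3 fell, with a median log2 fold change of 0.32. Over all genes tested 7.97% rose and 6.94% fell, with a median of −0.03. These shares also stand beside each list given below for Mll4 loss. With the FOXO3 pair summed, 18 of the 115 rose and 0 fell, against 1.23% and 0.854% of all genes. In homologous recombination 14 of 23 rose, and those with the smallest p were Dna2, a nuclease-helicase (1.28 ± 0.11), Rpa3, a subunit of the single-strand binding protein (1.30 ± 0.12), the nuclease subunit Eme1 (1.49 ± 0.16) and Rad51ap1, a strand-exchange factor (1.33 ± 0.14). In mismatch repair 9 of 14 rose, with the replicative ligase Lig1 at 1.68 ± 0.16, while Mlh3, a MutL subunit, fell with a log2 fold change of −0.93 ± 0.16. Of the checkpoint genes 9 of 21 rose, among them Tipin (1.34 ± 0.10) and Timeless (1.39 ± 0.15), which protect forks, and the Atr activator Topbp1 (1.11 ± 0.12).

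The other pathways moved less. Of 12 further Fanconi anaemia genes Rfwd3, a ubiquitin ligase, was the 1 that rose (0.84 ± 0.09). Of 13 tested end joining genes Polq, the polymerase of the alternative route, rose (1.34 ± 0.15). In nucleotide excision repair none of 19 rose by edgeR and Ercc6, the Cockayne syndrome B gene, fell (−0.61 ± 0.13), although 4 were higher before adjustment (p under 0.05) and DESeq2 called 1 higher. In base excision repair 4 of 17 rose, with the flap nuclease Fen1 at 1.41 ± 0.13.

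Genes of replication and mitosis moved with the repair genes. Of 30 such genes 28 rose, with a median log2 fold change of 1.32 and 16 still called with the FOXO3 pair summed. Their summed CPM was 3661.7 and 4332.0 in Mll4-deleted libraries, against 1443.4 and 1439.3 in intact ones. The 37 repair genes summed to 1445.4 and 1577.1 CPM in deleted libraries, against 830 and 814 CPM in intact ones. Per 100 CPM of the replication list, the repair genes came to 39.5 and 36.4 CPM in deleted libraries, against 57.5 and 56.6 CPM in intact ones, so on this scale the order of the groups was turned round.

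Set against the replication list gene by gene, Rad54l was the 1 member whose share was higher in both deleted libraries, 27 members were lower in both and 9 overlapped; over all genes tested, 1.98% were higher and 84.9% lower. Rad54l stood at 9.12 and 11.2 per 1000 CPM of the replication list in deleted libraries, against 6.47 and 7.26 in intact ones. The 9 that overlapped were Brca1, Bard1, Exo1, Fancb, Fancd2, Fanci, Chek1, Parp1 and Msh6. The part of cell division in the rise of the repair genes was not tested, and in bulk RNA a larger share of dividing cells and more RNA per cell cannot be told apart.

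**Figure D3:**
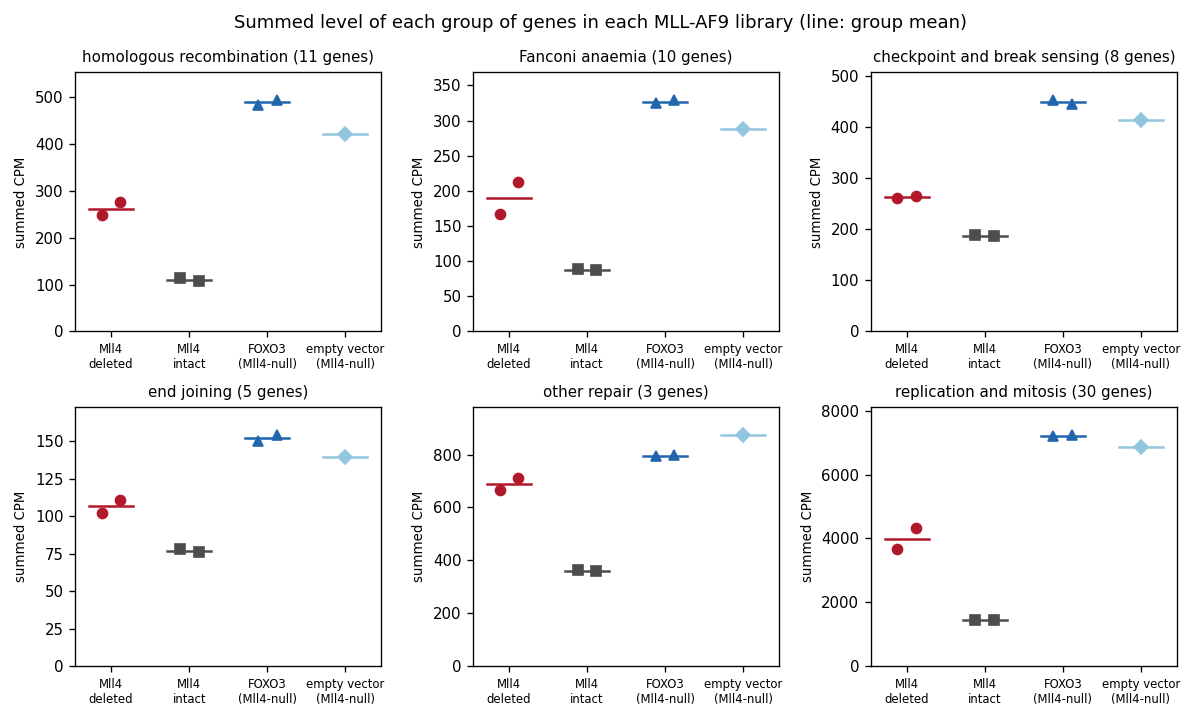
Summed CPM of each sub-function and of 30 replication and mitosis genes in each MLL-AF9 library (points; lines are group means; axes start at 0). In all 6 panels both Mll4-deleted libraries lie above both intact ones, and the FOXO3 and empty-vector libraries lie higher still and close to each other; relative to the intact level, the gap is widest for replication and mitosis and narrowest for checkpoint and end joining.

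Cell type markers also differed between these groups. Macrophage markers (14 genes) summed to 5280.0 and 11764.4 CPM in Mll4-deleted libraries, against 22534.9 and 32593.3 CPM in intact ones, and none of the 14 was at 0. Of the 14, Itgax and Lyz2 fell and none rose, and 4 of the 14 log2 fold changes were positive (2.11 for C1qa, 1.76 for C1qb, 1.43 for C1qc and 0.36 for Cd74); 3 were higher before adjustment (p under 0.05), and DESeq2 called 2 higher and 3 lower. Lyz2 made up most of the sum, with 3416.0 and 8534.2 CPM in deleted libraries, against 19157.4 and 28578.2 CPM in intact ones. Markers of granule-forming progenitors (6 genes) summed to 10287.3 and 13683.1 CPM in deleted libraries, against 1796.8 and 2479.6 CPM in intact ones, and 5 of the 6 rose. Their part in the repair gene values was not tested. Trp53, the damage-response factor, rose by 0.62 ± 0.09 on the log2 scale (adjusted p 0.0169 by edgeR), with 95 and 95.4 CPM in deleted libraries against 52.0 and 49.9 CPM in intact ones. Of 20 genes that p53 induces, 9 fell and Sesn1 rose. Among those that fell were Gadd45a (−2.26 ± 0.21), Plk2 (−2.28 ± 0.29) and the cell cycle inhibitor Cdkn1a, which stood at 545 and 507 CPM in deleted libraries against 695 and 637 CPM in intact ones (−0.62 ± 0.11, adjusted p 0.0212). With the FOXO3 pair summed, edgeR called 2 of the 20 lower, Gadd45a and Plk2, and 0 higher. Cdkn1a (adjusted p 0.135 by edgeR), Sesn1 (0.0805) and Trp53 (0.0712) did not pass in that fit. Of the markers, 1 macrophage gene was then lower and 4 of the 6 granule genes were higher, against 0.854% lower and 1.23% higher of all genes.

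FOXO3 in Mll4-null MLL-AF9 cells moved the repair genes little. None of the 37 passed edgeR's test in either direction, against 2.2% of all genes higher and 4.93% lower, and 6 were under 0.05 before adjustment: Exo1, Brca2 and Prkdc were higher and Xrcc5, Fancl and Fance lower. With the FOXO3 pair summed none passed either (2 were higher and 1 lower before adjustment), against 0.213% and 0.974% of all genes. The median log2 fold change was 0.03, against −0.04 for all genes, and 20 of the 37 values were positive, against 45.3% of all genes. Both FOXO3 libraries lay above the empty-vector library in CPM for 22 members and below it for 11, against 45.3% and 45.3% of all genes. DESeq2 called Brca2, Exo1 and Prkdc higher and Xrcc5 lower, against 5.6% and 9.21% of all genes. The empty vector had 1 library, whose spread was assumed to be that of the other groups, and with the 3 libraries alone, where the FOXO3 pair sets the spread, 16 members were called higher and 8 lower beside 34.1% and 35.9% of all genes.

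Xrcc5 showed the largest difference, with 4.45 and 5.75 CPM in FOXO3 libraries, against 11.3 CPM with the empty vector. Both FOXO3 values were also below the 4 libraries of the other experiment, which ranged from 9.04 to 12.1 CPM, and the log2 fold change was −1.20 ± 0.26 (adjusted p 0.0579 by edgeR). Its partner Xrcc6 was counted at 71.8 and 70.1 CPM in FOXO3 libraries, against 74.4 CPM with the empty vector (−0.12 ± 0.13). Prkdc, the third part of that kinase complex, was higher, with 53.2 and 56.5 CPM in FOXO3 libraries, against 35.5 CPM with the empty vector (0.58 ± 0.13, adjusted p 0.061).

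Exo1 and Brca2 gave values close to that of Prkdc. Exo1 stood at 83.2 and 84.0 CPM in FOXO3 libraries, against 53.6 CPM with the empty vector (0.59 ± 0.16, adjusted p 0.0967), and Brca2 at 55.3 and 57.5 CPM, against 36.8 CPM with the empty vector (0.57 ± 0.14, adjusted p 0.0806). Fancd2 reached the same fold change with a wider error (0.59 ± 0.34, adjusted p 0.373). The ligase subunit Fancl was counted at 12.5 and 12.4 CPM in FOXO3 libraries, against 17.2 CPM with the empty vector (−0.51 ± 0.20), and Fance at 18.1 and 17.9 CPM, against 24.7 CPM (−0.51 ± 0.20). None of these passed.

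The checkpoint genes lay between −0.05 for Nbn and 0.36 ± 0.20 for Chek2, which stood at 63.9 and 62.8 CPM in FOXO3 libraries, against 47.9 CPM with the empty vector. Msh6 stood at 107 and 102 CPM in FOXO3 libraries, against 123 CPM with the empty vector (−0.29 ± 0.13), and Ddb1 at 495 and 498 CPM, against 563 CPM (−0.23 ± 0.13). Of the 115 other repair genes 1 passed: Mlh3 rose, with 20.9 and 22.9 CPM in FOXO3 libraries, against 9.31 CPM with the empty vector (1.19 ± 0.20, adjusted p 0.0281). The call of Mlh3 was lost with the FOXO3 pair summed. Of the 30 replication and mitosis genes none passed by edgeR, 1 was higher before adjustment (p under 0.05) and DESeq2 called 1 higher. Their summed CPM was 7202.3 and 7241.6 in FOXO3 libraries, against 6850.8 with the empty vector. The repair genes came to 30.6 and 30.6 CPM per 100 CPM of that list in FOXO3 libraries, against 31.2 with the empty vector.

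Markers of other blood cells differed strongly with FOXO3. All 7 tested erythroid markers fell, to a sum of 4.64 and 4.10 CPM for the 9 listed genes in FOXO3 libraries, against 157 CPM with the empty vector. That value comes from 1 library, which stood above all 4 libraries of the first experiment. Their sums were 12.4 and 9.87 CPM with Mll4 deleted and 24.9 and 12.4 CPM with Mll4 intact. Of 14 macrophage markers 6 fell, with sums of 187 and 187 CPM in FOXO3 libraries, against 662 CPM with the empty vector, and 3 of the 14 were at 0 in each FOXO3 library. With the FOXO3 pair summed, most of the erythroid and macrophage calls were lost. The part of these markers in the values of Xrcc5, Prkdc, Exo1 and Brca2 was not tested. The summed repair genes stood at 2206.6 and 2218.6 CPM in FOXO3 libraries and 2138.5 CPM with the empty vector, above all 4 libraries of the first experiment; the transformation, the viruses and the selection differed together between the experiments and cannot be told apart.

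In LSK cells the repair genes were scattered in both directions. With 1 library for each genotype there is no test, and each ratio carries a 95% exact binomial (Clopper-Pearson) interval that covers counting error only. A mean of 1 CPM or more was reached by 26 of the 37, of which 7 were at least 2-fold higher and 10 at least 2-fold lower in the library labelled Mll4 deleted, and 9 lay within 2-fold. Over the 10174 genes with such a mean, 28.1% were at least 2-fold higher and 34.9% at least 2-fold lower, so differences of this size were frequent between the 2 libraries. The median log2 ratio was −0.17 for the repair genes and −0.15 for all genes.

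Wide ratios ran both ways within homologous recombination. Brca1 had 10 counts (0.386 CPM) in the library labelled Mll4 deleted, against 232 counts (8.72 CPM) in wild type, a log2 ratio of −4.50 (interval −5.58 to −3.59). Brca2 had 51 counts (1.97 CPM) in the library labelled Mll4 deleted, against 1136 counts (42.7 CPM) in wild type, a log2 ratio of −4.44 (interval −4.87 to −4.03), and Bard1 had 130 counts against 1231, a log2 ratio of −3.20. Xrcc3, in contrast, had 2957 counts (114 CPM) in the library labelled Mll4 deleted, against 93 counts (3.50 CPM) in wild type, a log2 ratio of 5.03, and Exo1 had 428 counts against 11, a log2 ratio of 5.32.

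Other sub-functions were split in the same way. The highest ratio was that of Prkdc, with 839 counts in the library labelled Mll4 deleted against 9 in wild type, a log2 ratio of 6.58 (interval 5.65 to 7.72), while Xrcc6, which acts with it, was nearly level at 46.6 CPM in Mll4 deleted and 52.4 CPM in wild type. Trp53bp1 (−3.61), Chek1 (−3.38), Rad50 (−1.91) and Mre11a (−1.90) were lower in the library labelled Mll4 deleted, Atr (1.40) and Chek2 (1.05) were higher, and Nbn (0.02) and Atm (−0.29) were close. Fanca had 0 counts in the library labelled Mll4 deleted, against 124 in wild type, which is at least 40.2-fold lower against a floor of 3 counts in that library. Fancg (−1.74) was lower, and Fancc (2.20) was higher. The members within 2-fold that are not named above were Fance (0.89), Fanci (0.38), Msh6 (0.37), Xrcc2 (0.36), Fancm (−0.17) and Fancl (−0.64).

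Parp1 and Ddb1, the members with the highest mean CPM in these libraries, ran opposite ways. Parp1 had 188 CPM in the library labelled Mll4 deleted, against 62.0 CPM in wild type, and Ddb1 104 CPM against 223 CPM in wild type. Rad51b, Fancb, Fancf and Xrcc4 had 0 counts in both libraries, which allows up to 0.116 CPM in Mll4 deleted and 0.113 CPM in wild type. The other members under a mean of 1 CPM were Palb2, Rad51c, Rad54l, Blm, Fancd2, Lig4 and Xrcc5. Summed over all 37, the level was nearly equal, at 733 CPM in the library labelled Mll4 deleted and 740 CPM in wild type, and the replication list stood at 2646.8 CPM in Mll4 deleted and 2213.9 CPM in wild type. The cDNA of about 50 cells had been amplified by PCR, and the part of amplification in these ratios was not tested.

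**Figure D4:**
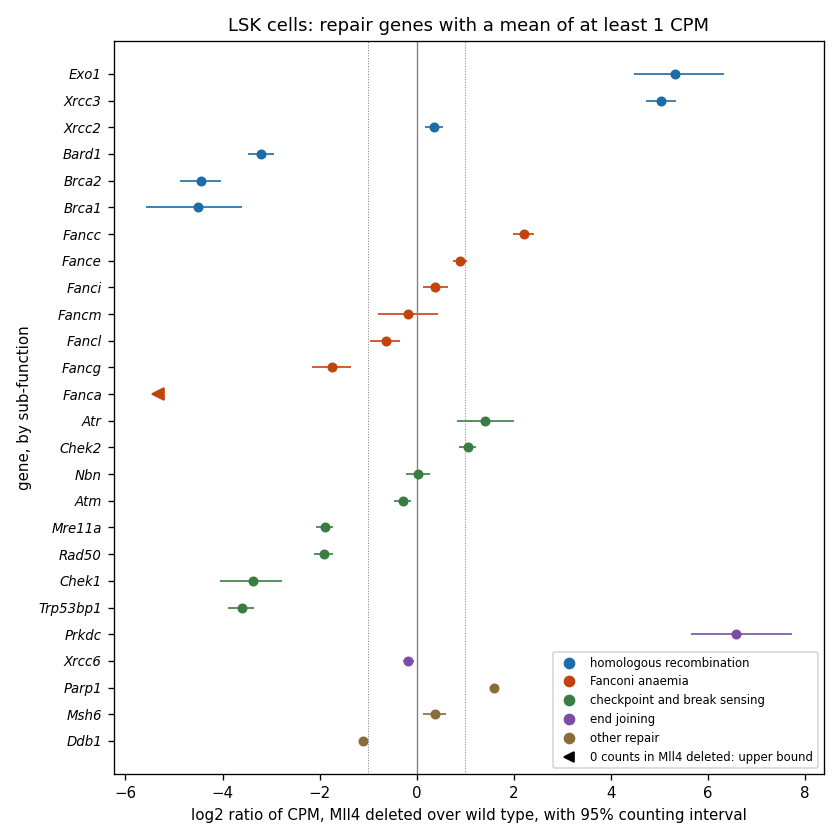
Log2 ratio of CPM in LSK cells, library labelled Mll4 deleted over wild type (1 library each), for the 26 members that averaged 1 CPM or more, with 95% counting intervals; dotted lines mark 2-fold and the triangle the bound for Fanca, which had 0 counts in Mll4 deleted. Points run from −4.50 for Brca1 to 6.58 for Prkdc, and each sub-function holds points on both sides of 0.

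Some of these values are uncertain because exons of the gene overlap a neighbour on the opposite strand. Besides Trp53bp1, the overlap reached 17% of the exon bases in Fancl (Vrk2), 13.4% in Fanci (Polg), 8.62% in Fanca (Zfp276), 8.5% in Xrcc6 (Desi1), 7.36% in Fancm (Gm47870), 7.27% in Xrcc4 (Tmem167), 6.82% in Ddb1 (Tkfc) and 5.63% in Atr (Gm16794). Of the 18 members that rose, Trp53bp1, Fanci, Xrcc6, Fancm and Ddb1 are among these; overlaps under 5% included 4.64% in Fancd2 (Fancd2os) and 4.12% in Rad54l (Lrrc41), which rose too.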

How the data were processed

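RNA-seq read counts were deposited by the authors as whole numbers per NCBI gene number, 1 file for each of 9 libraries, and were used as deposited. Per the submitters' processing notes, reads were processed on mm9 with tools that include Bowtie 0.12.8 and TopHat2 2.0.11; the sources used here do not name the counting tool or annotation or say whether strand was used. Per the labels' protocols, MLL-AF9 libraries were made with a TruSeq kit and LSK libraries from whole-cell lysate with a poly(A)-tailing PCR method, so levels were not compared between these. Gene names came from RefSeq (23185 of 23282 numbers matched), and exon lengths from GENCODE M21 on GRCm38. Unmatched numbers took 0.0373% to 1.01% of counts and stayed in totals.

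The 7 MLL-AF9 libraries were fitted together, with 1 coefficient per group and 3 residual degrees of freedom, by edgeR 4.0.16 in R 4.3.3 (TMM, filterByExpr, quasi-likelihood test), with Benjamini-Hochberg adjustment over all 14997 genes and a threshold of 0.05. All 37 members passed the filter. SE was |log2 fold change| divided by the square root of F. DESeq2 1.42.0 was an alternative. LSK ratios used library totals. Alternatives were RLE or total scaling, no expression filter, a filter at a mean of 5 CPM, robust estimation, the FOXO3 pair summed, the compared libraries alone, a replicate block and each library left out; the sex of the library as a term and TMM or RLE scaling of the levels were added after seeing the data. The fit was tested on simulated data. The members and all lists were chosen with earlier results of these data known. Named with values were, per sub-function, up to 4 members with the smallest p for Mll4 loss and 2 for FOXO3, those called against their sub-function, the 2 largest p, and up to 4 called genes of each wider list; other members are given by fold change. Some genes that meet this rule are not reported here.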

Additional observations from a re-analysis of the deposited data

Results flagged for a closer look

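Of the 19 repair genes called in MLL-AF9 cells, 7 averaged 1 CPM or more in LSK cells and had LSK ratios of the opposite sign whose counting interval excluded 0. Each rose with Mll4 loss in MLL-AF9 cells, in both libraries, and was lower in the LSK library labelled Mll4 deleted than in wild type. The LSK log2 ratios were −4.50 for Brca1, −4.44 for Brca2, −3.61 for Trp53bp1, −3.20 for Bard1, −1.74 for Fancg, −1.11 for Ddb1 and −0.17 for Xrcc6. The value of Xrcc6 lay close to the median of all genes, −0.15. Others of the 19 at that mean had LSK ratios of the same sign, with intervals that excluded 0. These were Xrcc2 (0.36), Xrcc3 (5.03), Exo1 (5.32), Fanci (0.38), Parp1 (1.60) and Msh6 (0.37). For Fancm (−0.17) the interval included 0. The share of all genes with opposite signs was not counted, so the 7 have no background and are not shown to be particular to the repair genes. The difference between the cell types was not tested, since each LSK genotype had 1 library. At least 2-fold differences were found for 28.1% (higher) and 34.9% (lower) of all genes that averaged 1 CPM or more in these libraries. Palb2, which rose in MLL-AF9 cells too, was under that mean, with 0 counts in LSK cells labelled Mll4 deleted against 31 in wild type, at least 10.1-fold lower against a floor of 3 counts.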

How the results depend on the processing

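For Mll4 loss the number of members called higher was 18, and it was 4 with the FOXO3 pair summed and 0 with the compared libraries alone. Leaving out 1 library gave 3 to 21: 3 without intact library 1, 11 without intact library 2, 3 without FOXO3 library 1 and 4 without FOXO3 library 2. The number called lower, 1, became 0 under RLE scaling, totals alone, no filter, the FOXO3 pair summed, the compared libraries alone and the sex term, and 2 with a mean of at least 5 CPM, DESeq2 and the replicate block; leaving out 1 library gave 0 to 2. The median of 0.61 became 0.88 with totals alone and 0.68 with no filter or the FOXO3 pair summed, and 0.54 to 0.68 with a library left out. For FOXO3, where 0 members were called in either direction, 3 were higher and 1 lower by DESeq2, 16 and 8 with the compared libraries alone, and 1 was lower with totals alone; leaving out 1 library gave 0 to 3 higher and 0 to 1 lower. The FOXO3 median of 0.03 became 0.08 with totals alone or the pair summed and 0.07 with the compared libraries alone, and 0.03 to 0.07 with a library left out. Members below in both Mll4-deleted libraries numbered 5 under TMM scaling of the levels, against 3. The LSK median of −0.17 became 0.01 when centred on genes of at least 10 CPM. Signs turned for Atr (0.08 with totals alone), Atm (−0.20 without deleted library 1 and −0.09 without intact library 1, in a range of −0.20 to 0.30 with a library left out), Rad51b (−0.03 without deleted library 2, range −0.03 to 0.23) and Rad51c (−0.00 without deleted library 2 and −0.10 without intact library 1, range −0.10 to 0.55), none of them called in the full fit. The causes were not tested. With the library number as a replicate block, 23 members were higher and 2 lower. Libraries of the same number differed in sex, so the number does not mark pairs from the same animal and the block stands for no known pairing. Xist stood at 771 CPM in deleted library 1 and 1.08 CPM in intact library 1. It stood at 2.21 CPM in deleted library 2 and 687 CPM in intact library 2. The deviations of the same-numbered libraries correlated at 0.18 over genes. For single members of the Mll4 comparison, 483 recomputed values kept sign and call, 106 lost a call and 34 gained one.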
